A study of Mus musculus with 10 samples.

Results

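The genes described here are 39 genes of autophagy and of the lysosome, listed by name for their roles in the pathway. The list was chosen with earlier results of these data known, so the shares of members given below are descriptions. A gene was measured where a probe set of the array names it and no other gene, and the brightest such probe set, by its mean of all arrays, stood for it. That gave 37 genes of the 11332 tested. The filter asked for a value above the table's median of 4.198 on at least 5 arrays, and each of the 37 lay above it in all 10 arrays, so none was kept through its level in 1 group alone. Optn and Bnip3l, which encode cargo receptors, were not analysed here. Whole lungs were taken from female mice of the inbred C57BL/6 strain, with no genetic modification given. The arsenic group was 5 mice given arsenic at 50 ppm in drinking water for 12 weeks from 8 weeks of age, and the control group was 5 mice given deionized water (0 ppm). The labels call the compound arsenate for the series and arsenite for the samples, so it is called arsenic here. Each animal gave 1 Affymetrix array, and all values below are log2 expression.

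Autophagy is the route by which a cell encloses worn organelles, protein aggregates or bulk cytoplasm in a new membrane, the autophagosome, and delivers them to the lysosome for digestion. A kinase complex starts it, a lipid kinase complex marks the site, and a ubiquitin-like conjugation system fixes LC3 and GABARAP proteins to the growing membrane, where cargo receptors dock. In the lung the route is active in alveolar macrophages and epithelial cells. Much of it is controlled on proteins and not on transcripts, so the flux of the route cannot be read from these arrays.

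The arrays were close to each other, with pairwise correlations over probe sets of 0.990 to 0.997. Their medians were 4.11 to 4.23 in arsenic lungs and 4.19 to 4.26 in control lungs. The lung markers fixed for type 1, type 2 and endothelial cells were above the filter (6 of 6, 7 of 8 and 7 of 7). Transcripts of other tissue were present as well. Of 16 kidney markers 8 were above the filter, among them Umod and Kap, while Slc12a1, Aqp2 and Cubn were among those that were not. The signal of the 8, summed on the linear scale, ranged from 3036 to 15018 in arsenic lungs and from 1105 to 6610 in control lungs, highest in arsenic animal 4. The mean log2 level of these 8 differed by 1.13 (exact permutation test over 252 splits, two-sided, p = 0.0794, 0.159 after adjustment over the 2 marker levels tested). Adipocyte markers (4 of 7 above the filter) varied widely, with summed signals of 594 to 11349 in arsenic lungs and 502 to 5990 in control lungs, and the erythroid markers above it (2 of 8) summed to 2149 to 3226 in arsenic lungs and 1757 to 2796 in control lungs. The part of adipocyte and erythroid transcripts in the results below was not tested, while the kidney level was fitted as a covariate. Over all genes 54 of 11332 passed an adjusted p of 0.05, which is 0.477%, with 43 higher in arsenic lungs and 11 lower. With the kidney level as a covariate 0 passed.

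None of the 37 autophagy and lysosome genes passed an adjusted p of 0.05 (limma, Benjamini-Hochberg over all genes), against 0.477% of all genes (0.379% higher and 0.0971% lower), and the smallest adjusted p among them was 0.107. At an unadjusted p of 0.05, 2 members were higher in arsenic lungs, Pink1 and Ctsl, where 10.6% of all genes were. At the same p 1 member was lower, Atg4c, where 5.13% of all genes were. The members' shares were 5.41% and 2.7%. The count of members higher at that p varied with the processing, and it was 7 when dim probe sets were not filtered out (7.92% of all genes) and 7 with each array centred on its median (15.3% of all genes). Without the filter the members kept the same probe sets and the same median difference (0.085), and only their p values changed. Of the genes with an unadjusted p under 0.05, 67.3% were higher in arsenic lungs, and 81.1% after that centring. In 2 members, Pink1 and Map1lc3b, all arsenic values lay above all control values, as in 2.82% of all genes, and in none did they all lie below, as in 0.803% of all genes.

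**Figure D1:**
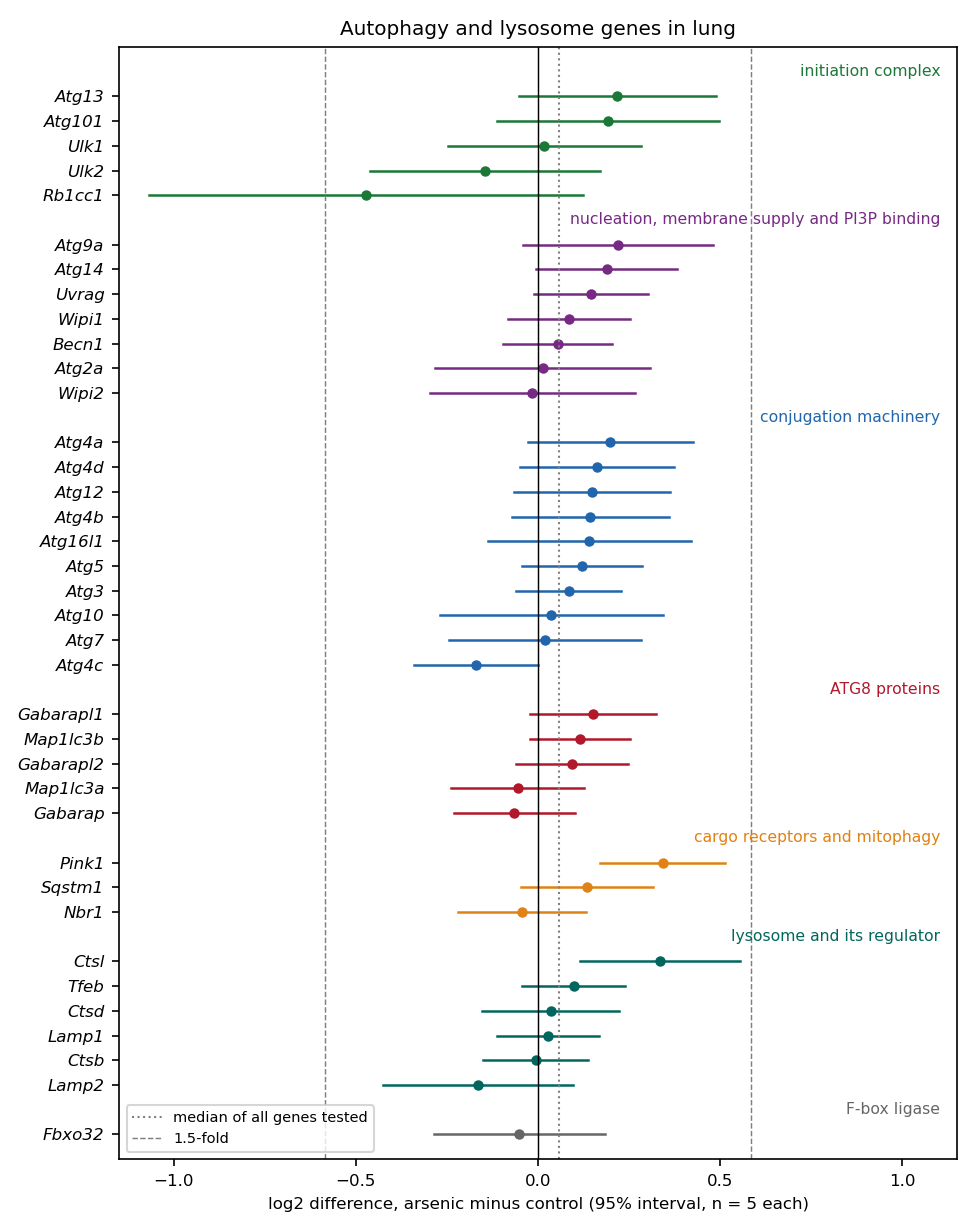
Log2 difference of each of the 37 genes, arsenic minus control, with its 95% interval from limma, grouped by role; dashed lines mark 1.5-fold and the dotted line the median of all genes tested. The intervals of 36 genes lie inside 1.5-fold and that of Rb1cc1 reaches past it.

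The differences were small. The arsenic minus control difference was positive for 27 members and negative for 10, with a median of 0.085 on the log2 scale, and 73.0% were positive. Over all genes tested 63.2% were positive and the median was 0.057. Under the alternatives that measured all 37, positive members numbered 24 to 32. They numbered 24 without arsenic animal 2, without control animal 4 or with the mean level of alveolar macrophage markers as a covariate. With the mean of a gene's probe sets 31 were positive, and the median was 0.12 against 0.055 over all genes. With each array centred on its median 32 were positive, and the median was 0.15 against 0.12 over all genes. Without any of these changes the difference was within 0.2 of 0 in 32 of 37 members (86.5%, against 68.5% of all genes), and it passed 0.3 in either direction in 3. Standard errors ran from 0.06 to 0.27 with a median of 0.09, against 0.12 over all genes. The 95% interval lay inside 1.5-fold in both directions for 36 members (97.3%, against 76.0% of all genes) and inside 1.25-fold for 20. A lower spread between animals narrows these intervals, so the shares describe precision together with size.

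**Figure D2:**
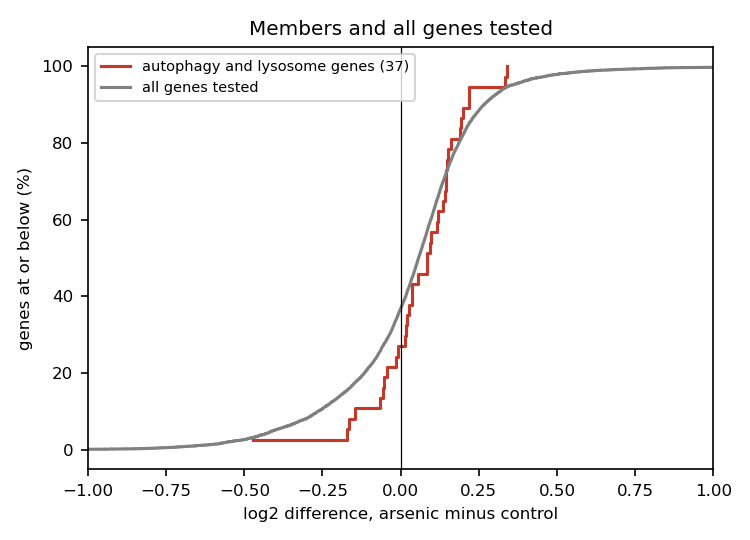
Cumulative share of genes (%) against the log2 difference, arsenic minus control, for the 37 members (red) and all 11332 genes tested (grey). The members' differences run from -0.47 to 0.34, and both medians lie slightly above 0.

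The largest positive differences were those of Pink1 and Ctsl. Pink1 encodes the mitochondrial kinase that builds up on damaged mitochondria and recruits the ubiquitin ligase parkin for mitophagy, the autophagy of mitochondria. Pink1 was at 12.51, 12.58, 12.80, 12.66 and 12.64 in arsenic lungs, against 12.37, 12.38, 12.24, 12.35 and 12.16 in control lungs. Every arsenic animal was above every control animal. The means were 12.64 ± 0.11 in arsenic lungs and 12.30 ± 0.10 in control lungs (SD, n = 5 each), a difference of 0.34 (95% interval 0.17 to 0.51) or 1.27-fold, which did not pass (limma adjusted p = 0.107). A further probe set of Pink1 had a difference of 0.26, with overlapping groups. Without any 1 array the difference of Pink1 stayed between 0.30 and 0.37, and it was 0.35 with the kidney level as a covariate.

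Ctsl encodes cathepsin L, a cysteine protease of the lysosome. It was at 13.07, 13.16, 13.05, 13.05 and 13.21 in arsenic lungs, against 12.56, 12.66, 12.72, 13.08 and 12.86 in control lungs. The arsenic animals lay close together, 4 of the 5 control animals lay below all of them, and control animal 4 lay among them. The means were 13.11 ± 0.07 in arsenic lungs and 12.77 ± 0.20 in control lungs (SD, n = 5 each), a difference of 0.33 (95% interval 0.12 to 0.55) or 1.26-fold, and the limma adjusted p was 0.190. Levels of the markers of alveolar macrophages, cells rich in lysosomes, overlapped between the groups. Of 11 such markers 8 were above the filter (Msr1 lay below it, and Ear1 and Ear2 were not analysed here), 7 of the 8 had a positive difference and Marco and Chil3 had an unadjusted p under 0.05. Their signal, summed on the linear scale, ranged from 30684 to 38390 in arsenic lungs and from 23753 to 32554 in control lungs. Their mean log2 level differed by 0.19 (exact permutation test, two-sided, p = 0.167, also 0.167 adjusted over the 2 levels). With that mean as a covariate, added after the data were seen, the difference of Ctsl was 0.23, and with the kidney level it was 0.24. In whole lung, more cells of a type and more RNA per cell cannot be told apart.

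By the probe set that stood for each gene, the other lysosomal members differed less. Ctsb and Ctsd encode cathepsins B and D, and their means were 13.47 ± 0.07 in arsenic lungs and 13.48 ± 0.06 in control lungs (SD, n = 5 each) for Ctsb and 12.53 ± 0.13 in arsenic lungs and 12.50 ± 0.11 in control lungs (SD, n = 5 each) for Ctsd. Lamp1, an abundant glycoprotein of the lysosomal membrane, averaged 13.41 ± 0.02 in arsenic lungs and 13.38 ± 0.08 in control lungs (SD, n = 5 each). The groups overlapped in all 3, with 95% intervals of -0.15 to 0.14 for Ctsb (difference -0.0071, or 0.06 with each array centred on its median), -0.15 to 0.22 for Ctsd and -0.11 to 0.17 for Lamp1. Further probe sets of Ctsb had differences of 0.0011, 0.11 and 0.26. Tfeb, the transcription factor that drives lysosomal and autophagy genes when it enters the nucleus, averaged 6.96 ± 0.06 in arsenic lungs and 6.86 ± 0.07 in control lungs (SD, n = 5 each), a difference of 0.10 (95% interval -0.04 to 0.24). Lamp2, whose protein is needed for the fusion of autophagosomes with lysosomes, averaged 13.22 ± 0.20 in arsenic lungs and 13.38 ± 0.18 in control lungs (SD, n = 5 each) and its probe sets disagreed, as described further on.

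TFEB binds the letters CACGTG (an E-box, the same on both strands), best within TCACGTGA, so promoters of 3 members are shown: Ctsl and Pink1 as the genes with the largest positive differences, and Ctsd as a cathepsin gene with nearly equal means and the longer motif. Each is a window of 300 bases around the gene's start, most of it before the start, from the RefSeq promoter table (GRCm38.p6), read 5′ to 3′ on the gene's own strand, and capitals mark the E-box.
Ctsl (chr13:64370471-64370770, minus strand): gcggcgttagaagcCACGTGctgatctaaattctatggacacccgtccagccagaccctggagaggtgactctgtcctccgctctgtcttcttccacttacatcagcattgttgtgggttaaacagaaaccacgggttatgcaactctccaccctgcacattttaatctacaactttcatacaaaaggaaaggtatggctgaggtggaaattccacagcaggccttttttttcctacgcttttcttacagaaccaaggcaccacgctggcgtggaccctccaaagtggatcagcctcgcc
Pink1 (chr4:138326247-138326546, minus strand): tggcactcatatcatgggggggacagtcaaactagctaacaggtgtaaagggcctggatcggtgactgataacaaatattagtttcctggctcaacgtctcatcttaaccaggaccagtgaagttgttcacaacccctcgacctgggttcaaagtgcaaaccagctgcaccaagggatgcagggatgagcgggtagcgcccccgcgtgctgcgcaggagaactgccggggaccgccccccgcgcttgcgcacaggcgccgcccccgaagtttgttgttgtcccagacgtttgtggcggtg
Ctsd (chr7:142387778-142388077, minus strand): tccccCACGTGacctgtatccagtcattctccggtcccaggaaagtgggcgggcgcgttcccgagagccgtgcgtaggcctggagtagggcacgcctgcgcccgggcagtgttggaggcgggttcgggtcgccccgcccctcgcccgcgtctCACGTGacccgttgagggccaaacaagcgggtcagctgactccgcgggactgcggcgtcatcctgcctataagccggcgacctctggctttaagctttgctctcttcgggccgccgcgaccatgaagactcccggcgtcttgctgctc
The E-box of Ctsl began 236 bases before the gene's start, and those of Ctsd began 245 and 98 bases before it, the nearer of these being within TCACGTGA. No CACGTG was found in the window of Pink1. Of the 39 genes listed, 31 matched the table, and 7 of them (22.6%) held CACGTG: Atg3, Atg5, Atg7, Atg14, Lamp1, Ctsd and Ctsl. It was found for 8.09% of the 27025 genes in the table and for 11.6% of the 9183 genes tested that matched it. The longer TCACGTGA, which contains the shorter motif, was found for Atg3 and Ctsd (6.45%), against 1.12% of all genes and 2.23% of those tested. The FoxO letters GTAAACA, searched on both strands, were found in 0 of the 31, against 4.05% of all genes and 3.15% of those tested. The median difference was 0.08 over the 7 members with an E-box and 0.10 over the 23 measured members whose windows lacked it.

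Among the cargo receptors, Sqstm1 encodes p62, which links ubiquitinated cargo to LC3 and is also an NRF2 target. It was at 12.81, 12.99, 12.92, 12.78 and 13.05 in arsenic lungs, against 12.77, 12.84, 12.79, 12.59 and 12.86 in control lungs. Arsenic animals 2, 3 and 5 lay above all controls, and arsenic animals 1 and 4 lay among them. The difference was 0.13 (95% interval -0.05 to 0.31, limma adjusted p = 0.435). Nbr1, a related receptor, averaged 11.45 ± 0.11 in arsenic lungs and 11.49 ± 0.10 in control lungs (SD, n = 5 each), a difference of -0.04, or 0.02 with each array centred on its median.

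The ATG8 proteins LC3 and GABARAP are attached to the lipid of the autophagosome and hold receptors there. Map1lc3b, which encodes LC3B, the usual marker of autophagosomes, was at 14.41, 14.52, 14.46, 14.48 and 14.47 in arsenic lungs, against 14.40, 14.39, 14.35, 14.38 and 14.24 in control lungs. All arsenic values were above all control values, but the lowest arsenic value and the highest control value nearly met. The difference of 0.12 (95% interval -0.02 to 0.25), or 1.08-fold, did not pass (limma adjusted p = 0.390). All 4 probe sets of Map1lc3b above the filter had a positive difference, up to 0.33.

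Gabarapl1 was at 12.44, 12.51, 12.40, 12.42 and 12.55 in arsenic lungs, against 12.37, 12.50, 12.31, 12.25 and 12.15 in control lungs. Control animal 2 lay among the arsenic animals and the other 4 controls lay below all of them, with a difference of 0.15 (95% interval -0.02 to 0.32). Gabarapl2 averaged 11.54 ± 0.08 in arsenic lungs and 11.44 ± 0.08 in control lungs (SD, n = 5 each), a difference of 0.09. Map1lc3a and Gabarap had small negative differences, -0.06 and -0.07, with 95% intervals of -0.24 to 0.13 and -0.23 to 0.10, and that of Map1lc3a was 0.0074 with each array centred on its median.

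**Figure D3:**
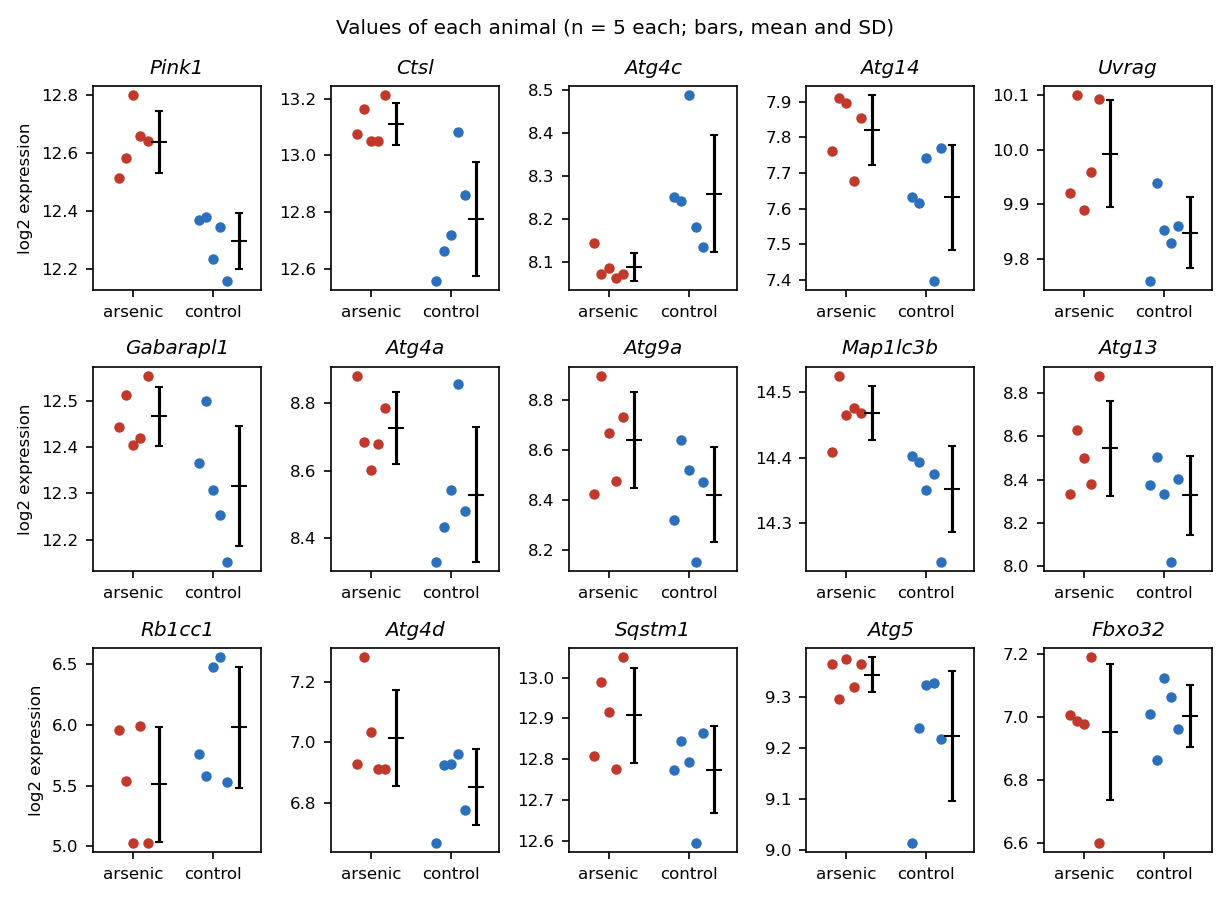
Log2 expression of each animal for 15 members, arsenic left (red) and control right (blue), with the mean and SD beside the points; each panel has its own axis, which does not start at 0. Only Pink1 and Map1lc3b have no overlap between the groups, and control animal 4 stands high for Ctsl and Atg4a and low for Atg14, Atg9a, Atg13 and Sqstm1.

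The conjugation machinery, which cuts the ATG8 proteins and joins them to lipid, held 10 members, 9 with a positive difference and a median of 0.13. Of all genes tested 63.2% had a positive difference, with a median over all of 0.057. The ATG4 proteases trim the ATG8 proteins before conjugation and later release them. Atg4c was the member whose difference was negative at an unadjusted p of 0.05. It was at 8.14, 8.07, 8.09, 8.06 and 8.07 in arsenic lungs, against 8.25, 8.24, 8.49, 8.18 and 8.14 in control lungs. Control animal 5 lay among the arsenic animals and the other 4 controls lay above all of them. The difference was -0.17 (SE 0.08, limma adjusted p = 0.316), and without control animal 3, which had the highest value, it was -0.11.

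The other ATG4 genes had differences of the opposite sign. Atg4a was at 8.88, 8.69, 8.60, 8.68 and 8.79 in arsenic lungs, against 8.33, 8.43, 8.54, 8.86 and 8.48 in control lungs. Control animal 4 lay among the arsenic animals and the other controls lay below all of them. The difference of 0.20 had a 95% interval of -0.03 to 0.43 and was 0.28 without control animal 4.

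Atg4d was at 6.93, 7.28, 7.03, 6.91 and 6.91 in arsenic lungs, against 6.67, 6.92, 6.93, 6.96 and 6.78 in control lungs. Arsenic animal 2 was highest, control animals 1 and 5 lay below all arsenic animals and the others overlapped, with a difference of 0.16. Atg4b averaged 9.40 ± 0.15 in arsenic lungs and 9.26 ± 0.14 in control lungs (SD, n = 5 each), a difference of 0.14.

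Atg5, whose product is joined to ATG12 to form the ligase that places LC3, was at 9.36, 9.30, 9.37, 9.32 and 9.36 in arsenic lungs, against 9.01, 9.24, 9.32, 9.33 and 9.22 in control lungs. The arsenic animals lay within a narrow range that control animals 3 and 4 shared, and control animal 1 was lowest. The difference was 0.12 (95% interval -0.05 to 0.28), and without control animal 1 it was 0.07. Its partner Atg12 averaged 8.93 ± 0.17 in arsenic lungs and 8.78 ± 0.11 in control lungs (SD, n = 5 each), a difference of 0.15, and Atg16l1, the scaffold of that ligase, 8.55 ± 0.22 in arsenic lungs and 8.41 ± 0.19 in control lungs (SD, n = 5 each), a difference of 0.14. The enzymes that carry out the conjugation were closer: Atg3 had a difference of 0.08, Atg10 of 0.04 and Atg7, the E1-like activating enzyme, of 0.02.

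Of the 5 genes of the initiation complex, 3 had a positive difference and 2 a negative one, with a median of 0.02. Ulk1, the kinase that starts autophagy when mTORC1 is inactive, averaged 9.71 ± 0.16 in arsenic lungs and 9.69 ± 0.23 in control lungs (SD, n = 5 each), a difference of 0.02 (95% interval -0.25 to 0.28), or -0.00096 after quantile normalization. Its paralogue Ulk2 had -0.15 (95% interval -0.46 to 0.17). Atg13, the adaptor of that kinase, was at 8.33, 8.63, 8.50, 8.38 and 8.88 in arsenic lungs, against 8.37, 8.50, 8.34, 8.02 and 8.40 in control lungs. The groups overlapped widely, with arsenic animal 5 highest and control animal 4 lowest, and the difference of 0.22 was 0.13 without arsenic animal 5 and 0.14 without control animal 4. Atg101, which stabilises ATG13, had a difference of 0.19 (95% interval -0.11 to 0.50), and 0.12 without arsenic animal 2, arsenic animal 5 or control animal 3, each left out alone.

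Rb1cc1, which encodes the scaffold FIP200 of the same complex, had the largest negative difference. It was at 5.96, 5.54, 5.03, 5.99 and 5.03 in arsenic lungs, against 5.76, 5.58, 6.48, 6.56 and 5.53 in control lungs. The values were spread widely in both groups and overlapped, with control animals 3 and 4 highest and arsenic animals 3 and 5 lowest. The difference was -0.47 (SE 0.27, 95% interval -1.07 to 0.12, limma adjusted p = 0.407). This was the only member whose interval reached past 1.5-fold, so that no change and a fall of over 1.5-fold both lie inside it. A further probe set of Rb1cc1 had -0.13.

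Of the 7 genes of nucleation, membrane supply and binding of PI3P, the lipid that marks the site, 6 had a positive difference and the median was 0.09. For all genes tested the share was 63.2% and the median 0.057. Becn1 encodes beclin 1, the core of the lipid kinase complex, and averaged 12.84 ± 0.06 in arsenic lungs and 12.78 ± 0.08 in control lungs (SD, n = 5 each), a difference of 0.05 (95% interval -0.10 to 0.20). Atg14 directs that complex to autophagy. It was at 7.76, 7.91, 7.90, 7.68 and 7.86 in arsenic lungs, against 7.63, 7.62, 7.74, 7.40 and 7.77 in control lungs. Control animals 3 and 5 lay among the arsenic animals, and the difference was 0.19 (limma adjusted p = 0.330).

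Uvrag forms the alternative complex that acts on endosomes. It was at 9.92, 10.10, 9.89, 9.96 and 10.09 in arsenic lungs, against 9.76, 9.94, 9.85, 9.83 and 9.86 in control lungs. Control animal 2 lay among the arsenic animals and the other 4 controls lay below all of them, with a difference of 0.15 (95% interval -0.01 to 0.30). Atg9a, the membrane protein whose vesicles seed the autophagosome, was at 8.42, 8.90, 8.67, 8.48 and 8.73 in arsenic lungs, against 8.32, 8.64, 8.52, 8.15 and 8.47 in control lungs. The groups overlapped, with a difference of 0.22 (95% interval -0.04 to 0.48). The lipid transfer gene Atg2a had 0.01, and the PI3P-binding genes Wipi1 and Wipi2 had 0.09 and -0.02, the last being 0.05 with each array centred on its median.

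Fbxo32 encodes atrogin-1, an F-box protein known as a FoxO target of muscle wasting. It was at 7.01, 6.99, 6.98, 7.19 and 6.60 in arsenic lungs, against 7.01, 6.86, 7.12, 7.06 and 6.96 in control lungs. Both the lowest and the highest values were those of arsenic animals, 5 and 4, and the difference was -0.05 (95% interval -0.29 to 0.18), or 0.01 with each array centred on its median. A further probe set of Fbxo32 had 0.30, and without arsenic animal 5 the difference was 0.04. Skeletal muscle markers were nearly all under the filter (1 of 10 above it, Mylpf). Cardiac muscle markers, which mouse lung carries in the walls of its veins, were above it for 8 of 10, all with negative differences, and their signal summed on the linear scale ranged from 2650 to 17428 in arsenic lungs and from 3466 to 14222 in control lungs.

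Probe sets of a member did not always agree. Of the 37 members 21 had more than 1 probe set above the filter. In 13 of these all differences had the same sign, and in 8 they had both signs: Becn1, Ulk2, Atg7, Wipi1, Wipi2, Lamp2, Ctsb and Fbxo32. For Becn1, Wipi2 and Ctsb the lowest difference was near 0 (-0.019, -0.016 and -0.0071). Over the 74 probe sets of the members, 10 (13.5%) were higher and 1 (1.35%) was lower by an unadjusted p under 0.05, against 8.4% and 8.79% of all 22495 probe sets, and 0 passed after adjustment over all of them, where 99 did. The 74 each name 1 gene, while the 22495 include probe sets that name none or several (19490 name 1). The shares are thus of unlike sets, and the shares over the 19490 alone were not taken.

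Among the members, the probe sets of Lamp2 spread most. Its 4 probe sets had differences of -0.17, -0.11, 0.14 and 0.30. The brightest, which stood for the gene, was at 13.46, 12.93, 13.25, 13.33 and 13.11 in arsenic lungs, against 13.35, 13.16, 13.48, 13.63 and 13.28 in control lungs, so that the groups overlapped. The probe set with 0.30 was at 12.70, 12.81, 12.78, 12.77 and 12.70 in arsenic lungs, against 12.25, 12.27, 12.46, 12.68 and 12.58 in control lungs, with no overlap between the groups (limma adjusted p over probe sets = 0.179). Transcripts of Lamp2 are known to end in alternative last exons, and which of them each probe set reads was not analysed here. Further probe sets of Gabarapl2 (0.35), Atg13 (0.32, and 0.34 in a dim one), Ctsb (0.26), Atg12 (0.24) and Atg5 (0.21) also had an unadjusted p under 0.05, as did a dim one of Ulk2 (-0.34).

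**Figure D4:**
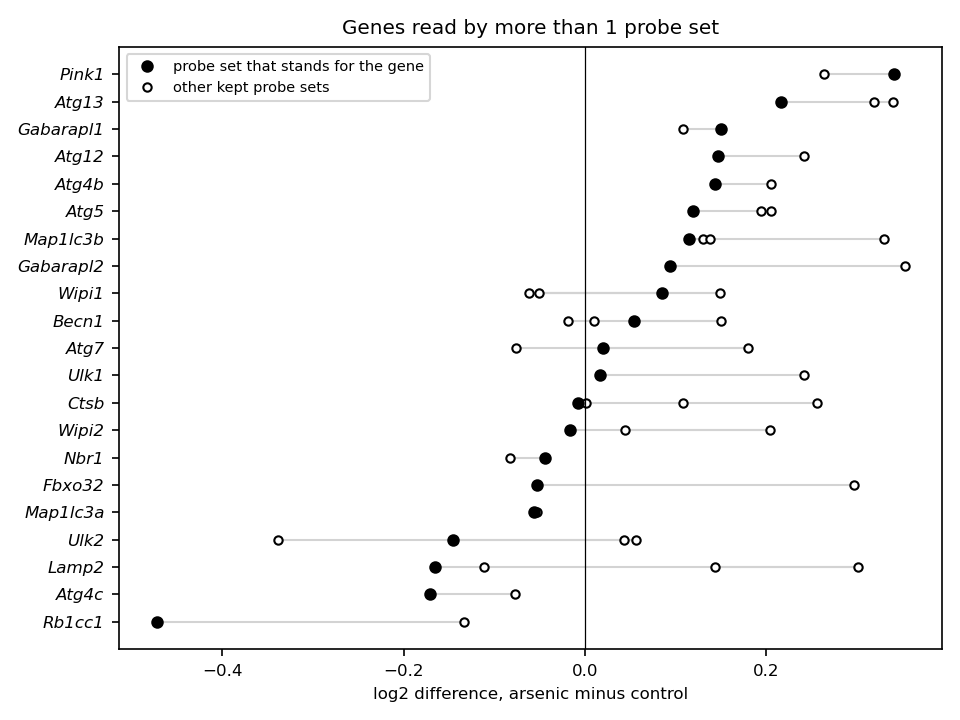
Log2 difference, arsenic minus control, of each probe set above the filter for the 21 members with more than 1; filled points stand for the gene and open points are its other probe sets. The points of Lamp2 run from -0.17 to 0.30 and those of Ulk2 from -0.34 to 0.06, while those of Pink1 are both positive.

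Among arsenic animals, animal 2 had the highest value of 16 of the 37 members and animal 4 the lowest of 13. Among controls, animal 4 had the lowest value of 15 members and the highest of 11. The median deviation from the group mean over the members was 0.08 for arsenic animal 2 and -0.06 for arsenic animal 4, and over all genes tested it was 0.06 and -0.05. For control animal 4 the median deviation was -0.06 over the members and -0.02 over all genes. The SD between animals had a median over the members of 0.12 in arsenic lungs and of 0.13 in control lungs. Single arrays moved several of these small differences by over 1.5 times. Without arsenic animal 2 alone, the difference was 0.09 for Atg4d, 0.06 for Atg16l1, 0.05 for Wipi1, -0.05 for Ulk2, -0.09 for Lamp2 and -0.09 for Map1lc3a. Without control animal 4 alone it was 0.09 for Sqstm1, 0.09 for Atg16l1, -0.07 for Ulk2 and -0.10 for Lamp2, and without control animal 3 alone it was 0.09 for Atg16l1, -0.09 for Ulk2 and -0.02 for Fbxo32. Without control animal 5 alone Becn1 had 0.02 and Gabarap -0.03, without arsenic animal 5 alone Atg3 had 0.05 and Map1lc3a -0.03, without arsenic animal 4 alone Gabarap had -0.02 and Fbxo32 -0.11, without control animal 2 alone Fbxo32 had -0.09, and without arsenic animal 1 alone Wipi1 had 0.13. The kidney level also varied between the animals. When the kidney level was added as a covariate, the differences of Atg4a and Atg5 were 0.08 and 0.03, and those of Atg13 and Rb1cc1 were 0.37 and -0.89 (limma adjusted p between 0.145 and 0.836). What kidney transcripts do to these values beyond that was not tested.

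Around the members, 7 further lists of the same pathway held 135 measured genes of 147 listed, of which 107 had a positive difference. These lists too were chosen with earlier results of these data known, so their shares are descriptions. Of all genes tested 63.2% did. Of the 135, 16 (11.9%) were higher with an unadjusted p under 0.05 and 3 (2.22%) were lower, against 10.6% and 5.13% of all genes, and 1 passed over all genes. That gene was Foxo3, a forkhead factor that activates autophagy genes and Fbxo32 when it is in the nucleus. Foxo3 was at 11.01, 10.94, 11.09, 11.12 and 11.01 in arsenic lungs, against 10.07, 10.43, 10.16, 10.38 and 10.37 in control lungs. Every arsenic animal was above every control animal, and Foxo3 rose by 0.75 on the log2 scale (SE 0.09, 1.68-fold, limma adjusted p = 0.00629). Both probe sets of Foxo3 above the filter were positive (0.75 and 0.66), and with the kidney level as a covariate its adjusted p was 0.0930 (limma, range over all alternatives 0.00201 to 0.0930).

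The list of MiT/TFE and FoxO factors, to which Foxo3 belongs, had 7 measured genes and a median difference of 0.16. Tfec, a relative of TFEB found mainly in macrophages, was at 6.75, 7.29, 6.38, 6.84 and 7.94 in arsenic lungs, against 6.05, 5.96, 6.03, 6.42 and 5.92 in control lungs. Control animal 4 lay above the lowest arsenic animal, and the difference of 0.96 did not pass (SE 0.25, limma adjusted p = 0.149), being 0.72 with the macrophage marker level as a covariate. Zkscan3 encodes a zinc-finger protein described as a repressor of autophagy and lysosomal genes. It was at 9.39, 8.93, 8.94, 9.80 and 9.37 in arsenic lungs, against 10.30, 9.85, 10.26, 9.85 and 9.88 in control lungs, with no overlap, a difference of -0.74 (limma adjusted p = 0.113), but its other probe sets had 0.41 and 0.48, so that no direction can be given for the gene.

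In the nutrient-sensing list of mTORC1 and AMPK, 5 of 33 measured genes were higher at an unadjusted p of 0.05 and 0 lower, with a median of 0.12. Over all genes 10.6% were higher at that p, 5.13% were lower and the median was 0.057. Lamtor3, a subunit of the Ragulator complex that holds mTORC1 at the lysosome, was at 10.33, 10.53, 10.36, 10.32 and 10.58 in arsenic lungs, against 10.17, 10.30, 10.18, 10.20 and 10.22 in control lungs, without overlap. Sesn1, a stress-induced inhibitor of mTORC1, had a difference of 0.36 and the Rag GTPase gene Rraga one of 0.25 (limma adjusted p = 0.247 and 0.248), and the 3 further probe sets of Sesn1 had 0.39, 0.48 and -0.46, the last being dim. Of 14 measured subunits of the vacuolar ATPase, the pump that acidifies the lysosome, 13 had a positive difference, with a median of 0.11, and 2 were higher at an unadjusted p of 0.05. A positive difference was found in 63.2% of all genes tested. Atp6v1g1 was at 14.05, 14.25, 14.09, 14.04 and 14.03 in arsenic lungs, against 13.93, 13.90, 13.84, 13.96 and 13.80 in control lungs, without overlap, while Atp6v1d had 0.23 and Atp6v1h 0.12.

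Of 38 measured lysosomal hydrolases and membrane proteins, 0 had an unadjusted p under 0.05 in either direction, with 30 positive differences and a median of 0.08. Over all genes 10.6% were higher and 5.13% lower at that p, and 63.2% had a positive difference. The genes with the smallest p there were Manba, Gla and Ctsh, with log2 differences of 0.21, 0.36 and 0.25 (Ctsh 0.15 without arsenic animal 2), which encode beta-mannosidase, alpha-galactosidase A and cathepsin H. Of 25 further genes of autophagosome formation and fusion, 3 were higher and 2 were lower at that p, with a median of 0.10. Rubcn, an inhibitor of the beclin 1 complex, had 0.20, the fusion SNARE gene Stx17 had -0.33 and Vps41 of the HOPS tethering complex had -0.59. The 4 probe sets of Stx17 disagreed (-0.33, -0.34, 0.32 and 0.34), so that no direction can be given for it. The 3 of Vps41 were all negative (-0.59, -0.15 and -0.11), while the other HOPS genes measured, Vps33a, Vps16, Vps39, Vps18 and Vps11, had differences of 0.08 to 0.33.

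Of 13 further cargo receptor and mitophagy genes, 2 were higher at that p and 0 lower, with a median of 0.06. The shares of all genes at that p were 10.6% higher and 5.13% lower. Bnip3, a mitophagy receptor and hypoxia target, had 0.41, Bcl2l13, another receptor of mitochondria, 0.25, and the deubiquitinase gene Usp30, which opposes parkin, 0.25. Of 5 measured genes of muscle atrophy and of the SCF ligase, 1 was higher, the F-box gene Fbxo31 with 0.59 (SE 0.15, limma adjusted p = 0.132), while Fbxo21 and Skp1 each had 0.13, and without control animal 1 0.07 and 0.03.

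**Figure D5:**
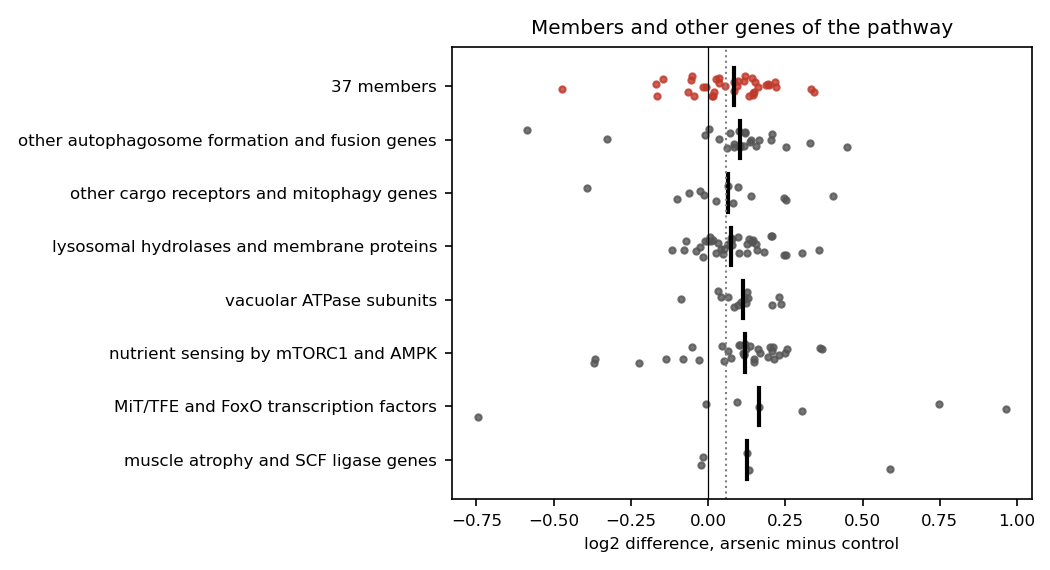
Log2 difference, arsenic minus control, of the 37 members (red) and of the measured genes of 7 other lists of the pathway (grey points), with the median of each as a bar; vertical scatter within a row has no meaning and the dotted line is the median of all genes tested. The medians lie between 0.06 and 0.16, and Foxo3, at 0.75, is the only gene shown that passed the test over all genes.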

How the data were processed

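RNA of 10 whole mouse lungs, 5 arsenic and 5 control, was hybridised to Affymetrix Mouse430_2 arrays. The log2 values were deposited by the authors after GCRMA, which corrects background, normalizes arrays and joins the probes of a probe set, per the submitters' processing notes. No scanner files were used here, so dim probes could not be judged against background. Per the labels, each array is a separate animal.

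Of 45101 probe sets, 34958 were listed with 1 gene symbol in GEO's platform annotation, 932 with several and 9211 with none. The 64 control probe sets, 13 of them with a symbol, were not used to name a gene. Probe sets above the table's median (4.198) on at least 5 arrays were kept (22552), and the brightest stood for its gene, leaving 11332 genes. Arsenic was compared with control in limma 3.58.1 (R 4.3.3) with Benjamini-Hochberg adjustment over all genes. On simulated data with these 11332 genes, arsenic against control, a log2 change of 0.5 was called in 26 of 67 genes, a change of 1 in 62 of 67 and a change of 2 in 65 of 66, and 12 of 11132 unchanged genes were called. The number of arrays limits the precision.

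The members and all lists were chosen with earlier results of these data known. Every member was named by role. Values of every animal were given for members past the threshold and the 14 with the smallest p, plus the member with the smallest p of any role without one. Of the other lists up to 3 genes with the smallest p were named. Values of every animal for Lamp2, Foxo3, Tfec, Zkscan3, Lamtor3 and Atp6v1g1, and the HOPS genes other than Vps41, were added after their values were seen. Promoters came from RefSeq (GRCm38.p6). Alternatives were other filters, scalings, probe set rules, limma settings, covariates, a replicate block and left-out arrays. The alveolar macrophage covariate and the fit of each probe set were added after the data were seen.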

Additional observations from a re-analysis of the deposited data

Results flagged for a closer look

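In groups of 5, a sample was picked out when its gap to the nearest other animal, divided by the group's range, was above Dixon's 95% critical value. This held for 6 of 116 groups examined, 2 of 74 for the members, and chance gives about 1 in 20. Among the members, control animal 5 was lowest for Becn1 at 12.64 where the other controls were at 12.79 to 12.85, and highest for Map1lc3a at 12.95 where the others were at 12.63 to 12.71. Among the other genes, arsenic animal 5 was lowest for Atp6v1d at 11.67 (the other arsenic animals were at 11.86 to 11.91), arsenic animal 2 was highest for Atp6v1g1 at 14.25 (14.03 to 14.09), and arsenic animal 1 was lowest for Rubcn at 8.25 (8.44 to 8.49). Control animal 4 was highest for Tfec at 6.42, where the other controls were at 5.92 to 6.05. Without control animal 5 the difference of Map1lc3a was 0.00045 and that of Becn1 was 0.02.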

How the results depend on the processing

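With 5 arrays a group and log2 values whose scanner signal was not used, differences of dim probe sets are the least certain. No member passed an adjusted p of 0.05 (limma) under any of the 22 alternatives, which include leaving out each array, and 0 of the 74 member probe sets did. The median difference of the members lay between 0.05 and 0.15, and between 0.06 and 0.11 without 1 array. The count of all genes past the threshold, 54, was 19 without the filter, 5 with the replicate block, 0 with the kidney level as a covariate (limma, where 12.5% of genes were higher and 9.21% were lower with an unadjusted p under 0.05), 12 with the macrophage level, 11 without arsenic animal 4 and control animal 2, and 9 to 41 without 1 array. The lowest of these, 9, was without arsenic animal 2, while 10 was without control animal 1, and all but the fit without arsenic animal 1 (41) moved it by over 1.5 times. With each probe set on its own, 99 of 22495 probe sets passed, which counts probe sets and not genes. Members higher at an unadjusted p of 0.05, 2, numbered 7 without the filter, 6 with the mean of probe sets, 4 after quantile normalization, 7 after centring, 4 with a trend, 4 with the block, 5 with the kidney level, 5 without arsenic animal 4 and control animal 2, and 2 to 4 without 1 array (4 without arsenic animal 4 or control animal 2). Members lower, 1, numbered 0 under the 75th percentile filter, mean of probe sets, quantile, centring, trend, block and macrophage settings, and 0 to 1 without 1 array.

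The numbers of the animals did not pair them: deviations of same-numbered animals correlated between -0.332 and 0.253 and none matched its own number best. With the replicate block the adjusted p of Foxo3 (limma) was 0.0640 (difference 0.75), and with the kidney level 0.0930 (difference 0.66). Signs changed mostly for differences near 0, but also for Lamp2 (-0.17), Skp1 (0.13) and Zkscan3 (-0.74). With the kidney level Atg10 was -0.18, Ctsb 0.038, Wipi2 0.13 and Skp1 -0.021. With the macrophage level Atg2a was -0.030, Atg7 -0.089, Ctsd -0.036, Fbxo32 0.051, Skp1 -0.0055 and Ulk1 -0.0050. With centring Ctsb was 0.056, Fbxo32 0.011, Map1lc3a 0.0074, Nbr1 0.019 and Wipi2 0.047. With the mean of probe sets Ctsb was 0.090, Fbxo32 0.12, Lamp2 0.042, Wipi2 0.078 and Zkscan3 0.049. Quantile normalization gave Fbxo32 0.0018 and Ulk1 -0.00096, and array weights gave Atg2a -0.048 and Atg7 -0.020. Without arsenic animal 4 and control animal 2, Atg10 was -0.13, Ctsb 0.019 and Wipi2 0.094. Without 1 array the differences ran from -0.069 to 0.11 for Atg10, -0.077 to 0.093 for Atg2a, -0.047 to 0.084 for Atg7, -0.026 to 0.020 for Ctsb, -0.11 to 0.036 for Fbxo32, -0.087 to 0.00045 for Map1lc3a, -0.070 to 0.071 for Ulk1 and -0.10 to 0.042 for Wipi2. The cause of these changes was not tested. Of the values of members under the other alternatives, 373 of 397 kept their sign and call, as did 350 of 370 without 1 array.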
